A study of Mus musculus with 10 samples.

Results

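REST, the RE1-silencing transcription factor, was mapped by chromatin immunoprecipitation and sequencing (ChIP-seq) at 45 genes of synaptic vesicle release and recycling, among 26089 RefSeq genes on chromosomes 1 to 19 and X. The members were taken by symbol from a list chosen with earlier results of these data known, so their shares are a description alone. All 45 were found in the annotation of the mm10 mouse genome. They comprise 7 genes of the SNARE fusion machinery, 11 synaptotagmin and Doc2 genes grouped as calcium sensors, 3 complexins and 2 synapsins. The others are 8 genes of the active zone, 3 Rab3 GTPases, 7 transporters and other vesicle proteins and 4 genes of endocytosis. A synaptic vesicle is filled with transmitter, held near the active zone by scaffold and priming proteins, fused with the membrane by SNARE proteins when a calcium sensor is triggered, and retrieved by endocytosis. REST is a zinc finger repressor that binds the RE1 element and recruits corepressors, and it is known for keeping such neuronal genes silent outside neurons. In the adult brain REST is low in most neurons and has been linked to aging and stress.

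Cortex came from female WT mice and female 3xTg mice, all 11 months old. The 3xTg line models Alzheimer's disease. Its alleles are human transgenes with the APPSwe and tauP301L mutations, together with a mutant PS1 knock-in. The background is a hybrid of strains that includes C57BL/6J, and the WT mice were littermate controls. Each genotype had 4 replicates, each a pool of 4 cortices, and 1 input library of chromatin without immunoprecipitation. The tissue was bulk cortex, so neurons and glia are mixed and a change in cell composition cannot be told apart from a change in binding per cell. The authors merged the 4 replicates of a genotype into 1 list of peaks, 3006 for WT and 5077 for 3xTg after peaks on chromosome Y were set aside. The spread between replicates and the reads behind each peak are therefore not visible, and no test between genotypes was made here. The paper itself compared the genotypes with DiffBind. It found peaks where REST occupancy was significantly higher in 3xTg and none where it was significantly lower. Intervals on shares are 95% Wilson intervals and cover counting error alone.

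REST peaks were found at 18 of the 45 members (interval 27.0 to 54.5%), against 15.7% of all RefSeq genes with a peak of either list. A gene was counted when a peak overlapped its body or lay within 5 kb of one of its start sites. In the WT list 14 members had a peak (31.1%, 19.5 to 45.7%), against 9.3% of all RefSeq genes. In the 3xTg list 16 members had one (35.6%, 23.2 to 50.2%), against 14.2% of all genes. The same 12 genes were on both lists (26.7%, against 7.78% of all genes), namely Snap25, Nsf, Syt1, Syt7, Syt11, Cplx2, Cplx3, Rims2, Unc13a, Bsn, Rab3c and Synj1. Syt4 and Dnajc5 were on the WT list alone (4.44%, 1.23 to 14.8%), against 1.52% of all genes, which lay inside that interval. Vamp1, Napb, Syn2 and Pclo were on the 3xTg list alone (8.89%, 3.51 to 20.7%), against 6.42% of all genes, a share inside the interval of the members. With both lists counted, every role had a gene with a peak, but neither list alone covered every role. The synapsins had no WT peak, and the transporters and other vesicle proteins had no 3xTg peak. Those roles rested on 1 weak peak each, Syn2 in 3xTg (8.98, rank 4337) and Dnajc5 in WT (6.02, rank 2998). The number of WT members depends on how low the list reaches: it fell to 8 (17.8%) when the lowest 3xTg fold enrichment was the limit of both lists, while 3xTg kept 16. The share of all genes with a WT peak fell with it, to 3.01%.

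Counting start sites alone leaves the gene bodies out. A peak within 5 kb of a start site was present at 12 members in WT (26.7%, 16.0 to 41.0%), against 6.72% of all genes, and at 12 in 3xTg (26.7%), against 9.87%. Synaptic genes are long, however, and a long gene has more room for a peak. The median member spanned 64255 bases and the median RefSeq gene 13498. Among genes of at least 50 kb, a comparison added after the data were seen, 9 of 24 members had a WT peak (37.5%, 21.2 to 57.3%) against 19.5% of 5002 genes, and 11 of 24 had a 3xTg peak (45.8%, 27.9 to 64.9%) against 30.7%. The 3xTg share of all long genes lay inside the interval of the members. Per megabase of gene body and start site flank, the members held 2.79 WT peaks and 3.94 3xTg peaks, against 2.04 and 3.42 over all genes. The excess of members with a peak was therefore smaller per base of gene span than per gene, and how much of it goes with gene length was not tested further. Other genes of the vesicle cycle were much like the members: of 51 listed beside them, among them synaptophysin, clathrin and AP2 subunits, 15 had a WT peak (29.4%, 18.7 to 43.0%) and 19 a 3xTg peak (37.3%, 25.3 to 51.0%).

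**Figure D1:**
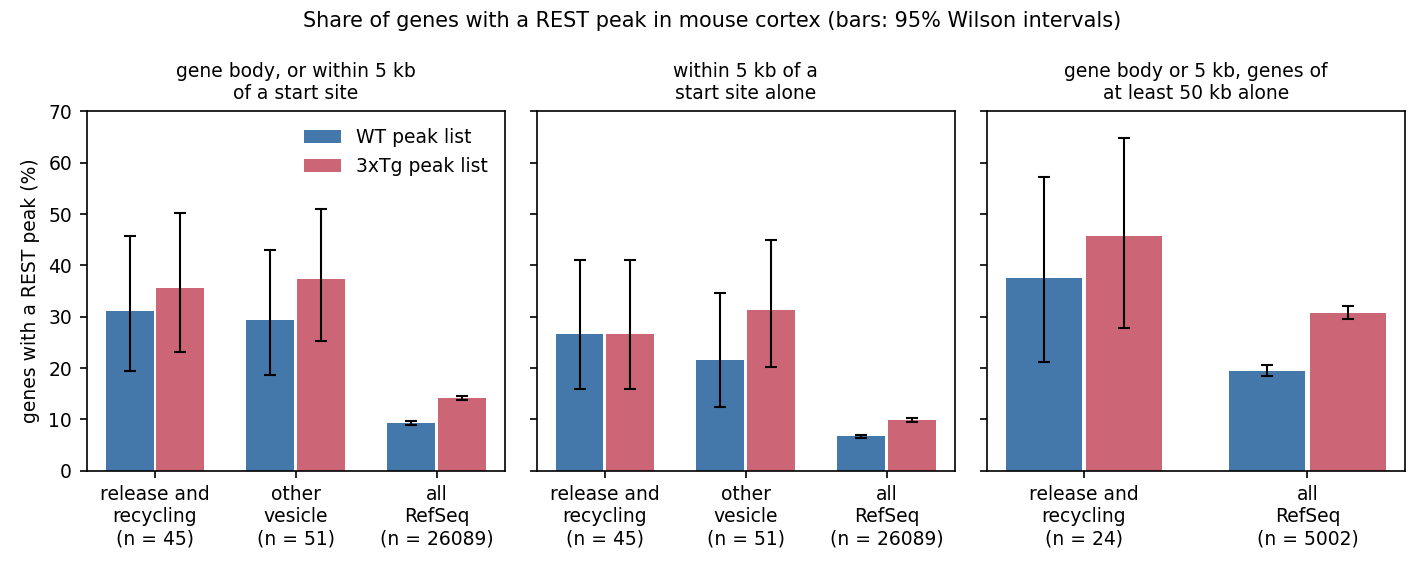
Share of genes with a REST peak, in percent, for the 45 release and recycling genes, the 51 other vesicle genes and all RefSeq genes, in the WT list (blue) and the 3xTg list (red), with 95% Wilson intervals. The members stand at 31.1% and 35.6% under the rule that includes gene bodies and at 26.7% in both lists for start sites alone, and the gap to all genes is narrower among genes of at least 50 kb, on the right.

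The fusion machinery carried some of the highest peaks. Fold enrichment, the authors' ratio of the pooled ChIP signal at the summit to the local background, was read with its rank in the list. Snap25, which encodes the plasma membrane SNARE that pairs with syntaxin and synaptobrevin, had a peak in intron 1, 655 bases inside a start site. Its fold enrichment was 19.6 in WT (rank 96 of 3006) and 19 in 3xTg (rank 562 of 5077). Among the shared member peaks, that of Snap25 was the 1 that was not higher in the 3xTg list. Nsf, the ATPase that takes spent SNARE complexes apart, had a peak in intron 4, far inside the gene at 33225 bases from the start site, with 20.6 in WT (rank 89) and 29.9 in 3xTg (rank 145). A weaker Nsf peak in intron 8 was on the 3xTg list alone, at 8.54. Vamp1, a synaptobrevin of the vesicle membrane, and Napb, the brain form of the SNAP adaptor that brings Nsf to the complex, had peaks at their start sites in the 3xTg list alone. Vamp1 reached 9.40, with the summit 162 bases upstream, and Napb 8.75, with the summit 66 bases inside coding exon 1. Stx1a, Vamp2 and Snapin, which encode syntaxin 1A, the main vesicle SNARE and a SNAP25-binding protein, had no peak in either list. The machinery therefore divided into 2 genes with strong peaks in both lists, 2 with weak 3xTg peaks and 3 with none.

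Among the synaptotagmin and Doc2 genes grouped as calcium sensors, Syt1, Syt7 and Syt11 had a peak in both lists. Syt1, the fast sensor of transmitter release, held 3 WT peaks and 4 3xTg peaks spread over a gene of 513326 bases. The peak 3522 bases inside a start site, in intron 1, had a fold enrichment of 6.43 in WT and 10.4 in 3xTg. In intron 2 the values were 6.11 and 10.7. The highest Syt1 peak lay in intron 3, 281357 bases from the start site, with 11.0 in WT (rank 442) and 22.3 in 3xTg (rank 363). The start site nearest to its WT summit was that of another gene, Gm5136, 27594 bases away. A peak in intron 9 was found in 3xTg alone, at 11.6. Syt1 was thus marked mostly deep inside the gene rather than at its promoter. Syt7, a slow, high-affinity sensor used in asynchronous release and facilitation, had 1 peak in intron 1, 14211 bases from a start site, at 15.8 in WT (rank 175) and 25.6 in 3xTg (rank 230). Syt11, a synaptotagmin that does not bind calcium, had a shared peak in intron 1, 1037 bases from the start, at 7.66 and 10.4, and a 3xTg peak 3665 bases from the start at 8.63. Syt4, whose product lacks full calcium binding and modulates release, was the 1 gene of this group on the WT list alone. Its WT peak covered the 5′ UTR, with the summit 191 bases inside the start site and a fold enrichment of 6.11 (rank 2737). Syt2, Syt3, Syt5, Syt6, Syt9, Doc2a and Doc2b had no peak, so the other main fast sensor, Syt2, differed from Syt1.

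Complexins clamp the assembled SNARE complex until calcium arrives. Cplx2, the main complexin of forebrain pyramidal cells, had a peak 370 bases inside the start site of its shorter transcripts, at 7.52 in WT and 13.7 in 3xTg. Cplx3, a membrane-anchored complexin of ribbon synapses and some cortical neurons, had a narrow peak of 324 bases in the WT list on its 5′ UTR, 74 bases inside the start site, at 7.45 in WT and 9.62 in 3xTg. Cplx1 had none. Of the synapsins, which tether vesicles of the reserve pool to actin, Syn2 had a weak 3xTg peak in intron 1 of its longer transcripts (8.98, rank 4337) and Syn3 had no peak. Both complexin peaks lay at start sites, unlike those of Nsf and Syt7.

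The strongest member peak of both lists was at Unc13a, which encodes Munc13-1, the priming factor that opens syntaxin for SNARE assembly. Its summit was 60 bases inside the start site, in the 5′ UTR, with a fold enrichment of 23.8 in WT (rank 72) and 44.0 in 3xTg (rank 46). Its paralogs Unc13b and Unc13c had no peak. Rims2, a Rab3-binding scaffold that recruits calcium channels, had a shared peak in intron 1, 973 bases from a start site, at 6.52 in WT and 14.0 in 3xTg. A second Rims2 peak, 1473 bases upstream, was on the 3xTg list alone at 11.0, so the flank of this start site held the larger number of 3xTg peaks. Bsn, the giant scaffold bassoon, had a peak in coding exon 1 at 9.27 and 14.7, and another in intron 2, 62025 bases from its start site, at 8.96 and 12. The WT summit of the intron 2 peak was nearer to the start of another gene, 4930447F24Rik, at 5360 bases. Pclo, piccolo, the partner of bassoon, had a weak 3xTg peak in intron 3 alone, at 8.63. Rims1 and Rims3 had none, so Rims2 and Unc13a were the members with a peak among their listed paralogs. Both giant scaffolds had a peak in at least 1 list. Rims4, among the other vesicle genes, had a 3xTg-only peak in intron 1, at 12.4.

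Of the Rab3 GTPases, which mark vesicles and bind Rim, Rab3c alone had a peak. Its peak summit coincided with a start site, at 10.2 in WT (rank 550) and 19.3 in 3xTg (rank 538), while Rab3a and Rab3b had no peak. Of the 7 transporters and other vesicle proteins 1 had a peak. Dnajc5, the cysteine string protein that keeps SNAP25 folded, had a WT peak 109 bases upstream of its start at 6.02, rank 2998 and close to the end of the list. The glutamate transporters Slc17a6 and Slc17a7, the SV2 proteins Sv2a, Sv2b and Sv2c, and Synpr had none. Among the endocytosis genes, Synj1, a phosphatase that helps strip clathrin from new vesicles, had a shared peak 279 bases upstream at 9.76 in WT and 12.5 in 3xTg, which also lay within 1 kb of the start of 4930404I05Rik. A further Synj1 peak in intron 2 was found in 3xTg alone, at 9.15. Dnm1, Amph and Sh3gl2, which encode dynamin, amphiphysin and endophilin, had no peak. The groups hold 2 to 11 genes each, so their shares were not compared with one another.

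**Figure D2:**
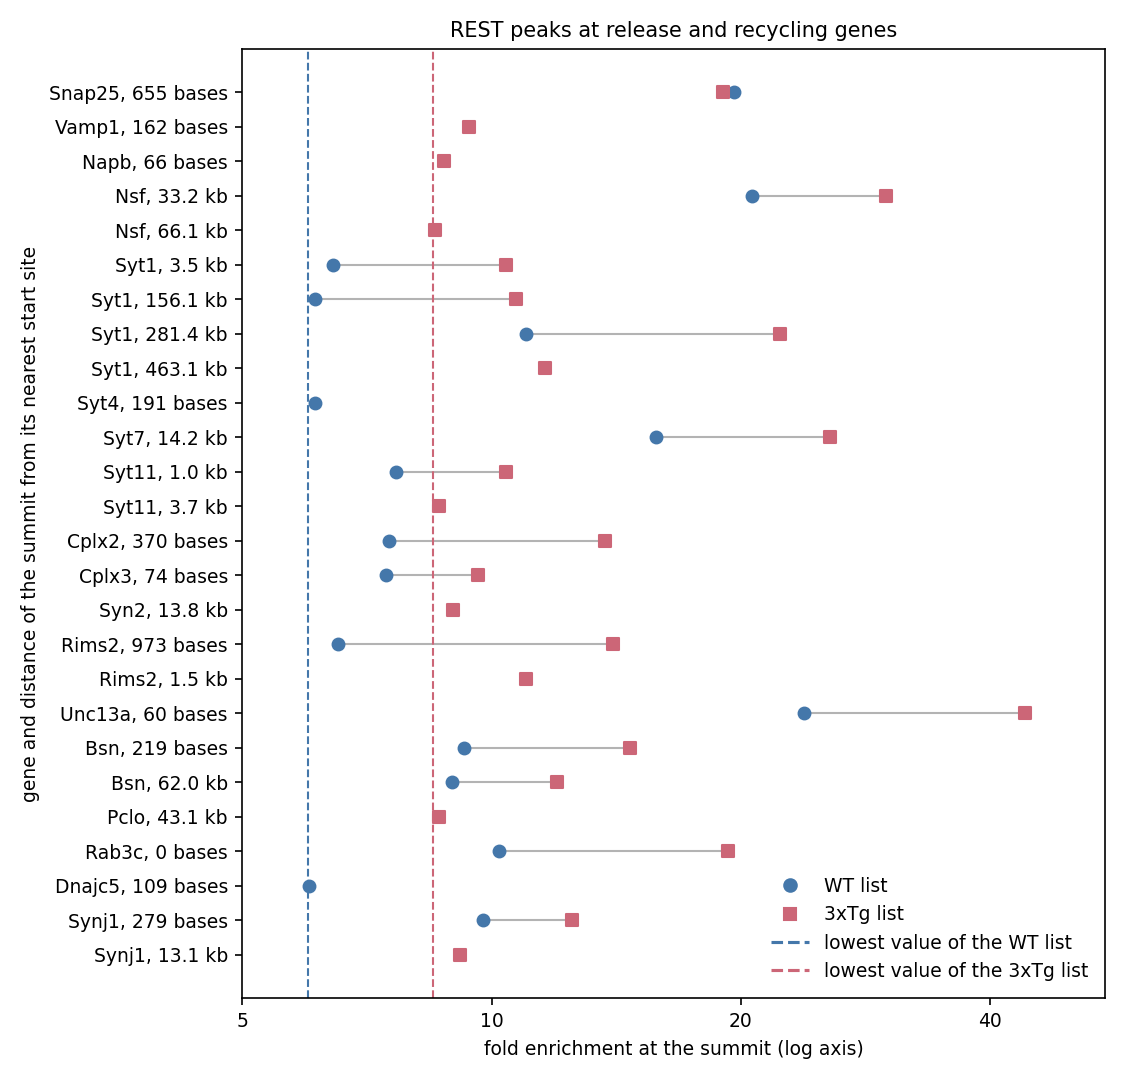
Fold enrichment at the summit (log axis) of every REST peak at the release and recycling genes in the WT list (blue circles) and the 3xTg list (red squares), with shared peaks joined by a line and dashed lines at the lowest value of each list, 6.0 and 8.5. All shared pairs but Snap25 run to higher values in 3xTg, and most peaks of 1 list alone lie close to that list's lowest value.

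The WT list held 17 member peaks and the 3xTg list 24. In WT, 15 had 1 or more bases in common with a peak of the 3xTg list and 2 did not (11.8%, 3.29 to 34.3%), against 16.7% of all WT peaks. Of the 3xTg peaks 9 were 3xTg-only (37.5%, 21.2 to 57.3%), against 51.0% of all 3xTg peaks. Both intervals hold the share of the whole list at this overlap and these limits. Most list-only peaks were weak. In 3xTg they ran from 8.54 at Nsf to 11.6 at Syt1 with a median rank of 4337 of 5077, and in WT they were the Syt4 and Dnajc5 peaks at 6.11 and 6.02. The lists did not end at the same value, since the lowest fold enrichment was 6.0 in WT and 8.5 in 3xTg, both above the stated limit of 5. Of the 502 WT-only peaks in all, 497 were under 8.5, as were 8 of the 17 WT member peaks. Whether Syt4 and Dnajc5 had weaker signal in 3xTg cannot be read from the lists, because the 3xTg list holds no peak of their height. With 8.5 as the limit in both lists, 9 WT member peaks remained and none was WT-only, against 5 of 950 in all (0.526%), while 15 of the 24 3xTg peaks (62.5%, 42.7 to 78.8%) were 3xTg-only, against 81.4% of all 3xTg peaks, a share outside the interval. With overlap of at least 50% of both peaks the order turned, with 64.7% of WT member peaks WT-only (41.3 to 82.7%) against 40.8% of all and 75.0% of 3xTg member peaks 3xTg-only (55.1 to 88.0%) against 64.9%. A pair in which 1 peak is under 50% of the width of the other cannot reach that overlap. The median ratio of 3xTg to WT peak width was 2.1 over the 15 member pairs and 1.66 over all 2504 pairs. List-only under that rule therefore includes peaks that do overlap a peak of the other list but differ from it in width. How the members compare with the list thus depends on the limit and on the overlap required.

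Shared member peaks were higher in 3xTg by a factor close to that of the whole list. Over the 15 pairs the median ratio of 3xTg to WT fold enrichment was 1.61, from 0.969 at Snap25 to 2.15 at Rims2, against a median of 1.70 over all 2504 pairs. The limits of the lists fix part of this, because a WT peak under 8.5 can pair only at a ratio above 1. That held for 1559 of all pairs (62.3%) and for 6 member pairs, those of Rims2, Cplx2, Cplx3, Syt11 and the intron 1 and intron 2 peaks of Syt1, whose ratios cannot be placed against the others. Among the 945 pairs with a WT value of at least 8.5, a subset chosen after the data were seen, the median was 1.71, with quartiles of 1.5 and 1.93, and 98.7% were above 1. The 9 member pairs among them had a median of 1.58, and 8 were above 1. A ratio above 1 at a member is thus what nearly every such pair showed, and its cause was not tested. Snap25 stood low on that scale, at percentile 0.741. Synj1 (1.29), the intron 2 peak of Bsn (1.34) and Nsf (1.45) were also under the lower quartile, and the intron 3 peak of Syt1 (2.03, percentile 83.3) was above the upper one. These orders describe 1 pooled list per genotype, with no replicate error to set them against.

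RE1, the element that the zinc fingers of REST read, was searched as TCAGCACCNNGGACAGCNCC, where N is any base, with at most 3 mismatches over its 17 determined positions on either strand. Of the WT member peaks 5 of 17 held a match (29.4%, 13.3 to 53.1%), against 6.02% of all WT peaks and 0.233% of windows of the same width 10 kb downstream. Of the 3xTg member peaks 4 of 24 did (16.7%, 6.68 to 35.9%), against 4.35% of all 3xTg peaks and 0.532% of windows. All matches in 3xTg were in shared peaks, at Snap25, Nsf, Syt7 and Cplx3, and WT had the same 4 plus Syt4. None of the 9 3xTg-only member peaks held one, which allows a share of up to 29.9%, against 51 of all 2588 3xTg-only peaks (1.97%). Matches with 2 mismatches thus lay in high peaks at Snap25, Nsf and Syt7 and in a low one at Syt4, while the highest, Unc13a, held none within the limit. The matches are given 5′ to 3′ from mm10, with capitals for bases that match a determined position, so that the element can be compared with the peak height of each gene.
Snap25, chr2:136714339-136714358, plus strand, intron 1, 2 mismatches: TCAGCACCgcGGACAGCgat
Nsf, chr11:103920836-103920855, plus strand, intron 4, 2 mismatches: TCAGCACCatGGACAGtatC
Syt7, chr19:10403320-10403339, plus strand, intron 1, 2 mismatches: TCAGtACCaaGGgCAGCaCC
Cplx3, chr9:57606200-57606219, plus strand, 5′ UTR, 3 mismatches: TaAGtcCCggGGACAGCtCC
In the first pair the left part of the element, TCAGCACC, is complete, and Cplx3 keeps the right part, GGACAGC, in full. The centre of the match lay 7 bases from the WT summit at Snap25, 14 at Nsf, 28 at Syt7 and 2 at Cplx3, so the element lay close to the summit. In 3xTg the distances were 44, 3, 24 and 18 bases. At Syt4 a match with 2 mismatches lay 36 bases from the WT summit, in the 5′ UTR. Rims2, with TCAGCACCagGGAactgtCC in its shared intron 1 peak, missed the limit by 1 mismatch, as did Unc13a, whose best match in the peak lay 485 bases from the WT summit.

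Most member peaks hold no such match, among them the strongest, Unc13a. The left and right parts of the element were therefore searched apart, as exact letters on either strand within 100 bases of the summit, a search added after the data were seen. These letters are also part of the full element, so peaks with both kinds of match count in each. The left part, TCAGCACC, was present at 7 of the 17 WT member peaks (41.2%), against 5.85% of all WT peaks, and the right part, GGACAGC, at 8 (47.1%), against 9.25%. In 3xTg the counts were 7 of 24 (29.2%, against 4.33%) and 8 of 24 (33.3%, against 7.05%). Both parts were present at 4 WT member peaks (23.5%, against 3.43% of all WT peaks): Snap25, Unc13a, Cplx2 and Rab3c. The stretch that holds both is shown for each, with the parts in capitals, because the distance and direction between them differ.
Snap25, chr2:136714339-136714355, plus strand, 2 bases between the parts: TCAGCACCgcGGACAGC
Unc13a, chr8:71671728-71671750, plus strand, 8 bases between the parts: TCAGCACCgggggcgcGGACAGC
Cplx2, chr13:54371736-54371752, minus strand, 2 bases between, right part reversed: GCTGTCCctTCAGCACC
Rab3c, chr13:110280143-110280160, plus strand, 3 bases between, right part reversed: TCAGCACCggaGCTGTCC
Snap25 has the spacing of the consensus. In Unc13a the parts keep their order and strand but stand 8 bases apart in place of 2, and their centres lie 35 and 50 bases from the WT summit. In Cplx2 and Rab3c the parts face opposite ways, an arrangement that the consensus does not have and that was not counted apart over all peaks. With the parts in order on 1 strand, 1 of the 17 WT member peaks had 2 bases between them (5.88%, against 1.46% of all WT peaks). Another had 7 to 11 bases between them (5.88%, against 1.16%). In other members 1 part alone was near the WT summit: the left part at Nsf, Syt4 and Syt7, and the right part at Syt1, Cplx3, Bsn and Synj1. At Rims2 the left part alone was near the 3xTg summit.

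The spacing seen at Unc13a recurs across the genome. Exact left and right parts in order on 1 strand, with 0 to 20 bases between them, were listed on all chromosomes. At 2 bases there were 191 pairs, of which 25.1% lay in a WT peak and 28.8% in a 3xTg peak. At 8 bases, as in Unc13a, there were 44 pairs, 15.9% in a WT peak and 18.2% in a 3xTg peak, and at 9 bases 47 pairs, 36.2% and 40.4%. Grouped after these values were seen, spacings of 7 to 11 bases had 37 of 142 pairs in a WT peak (26.1%), while none of the 61 pairs at 3 to 6 bases and none of the 56 at 12 to 19 bases lay in a peak of either list. At 20 bases, the end of the range searched, 2 of 8 pairs lay in a WT peak and 3 in a 3xTg peak. The Unc13a spacing is thus among the distances at which pairs lay in peaks. Such a pair does not by itself mark a peak at a member. Cplx1, with 7 bases between the parts, and Cplx3, with a pair at 9 bases outside its peak, held wide pairs with no peak over them in either list.

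**Figure D3:**
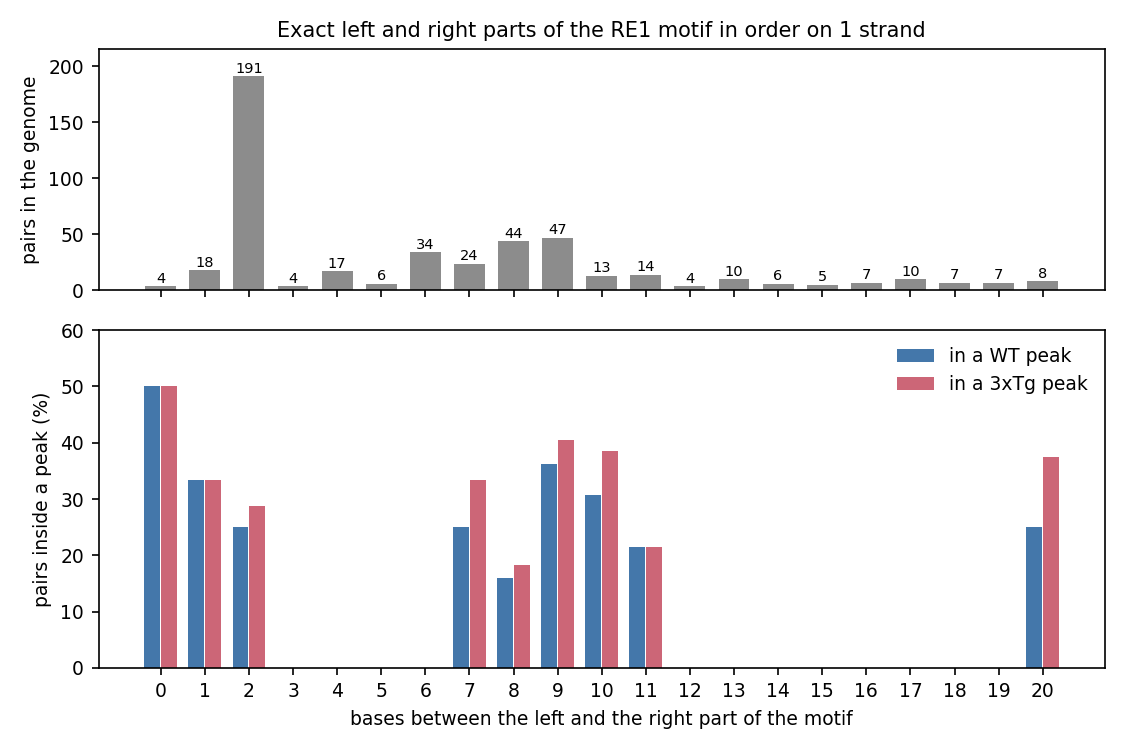
Number of exact left and right parts of the RE1 element in order on 1 strand of the mm10 genome (top) and the percentage of these pairs inside a WT (blue) or 3xTg (red) peak (bottom), by the number of bases between the parts. Pairs inside peaks stand at 0 to 2 bases and at 7 to 11 bases, the latter including Unc13a at 8, with a few at 20 and none at 3 to 6 or 12 to 19.

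**Figure D4:**
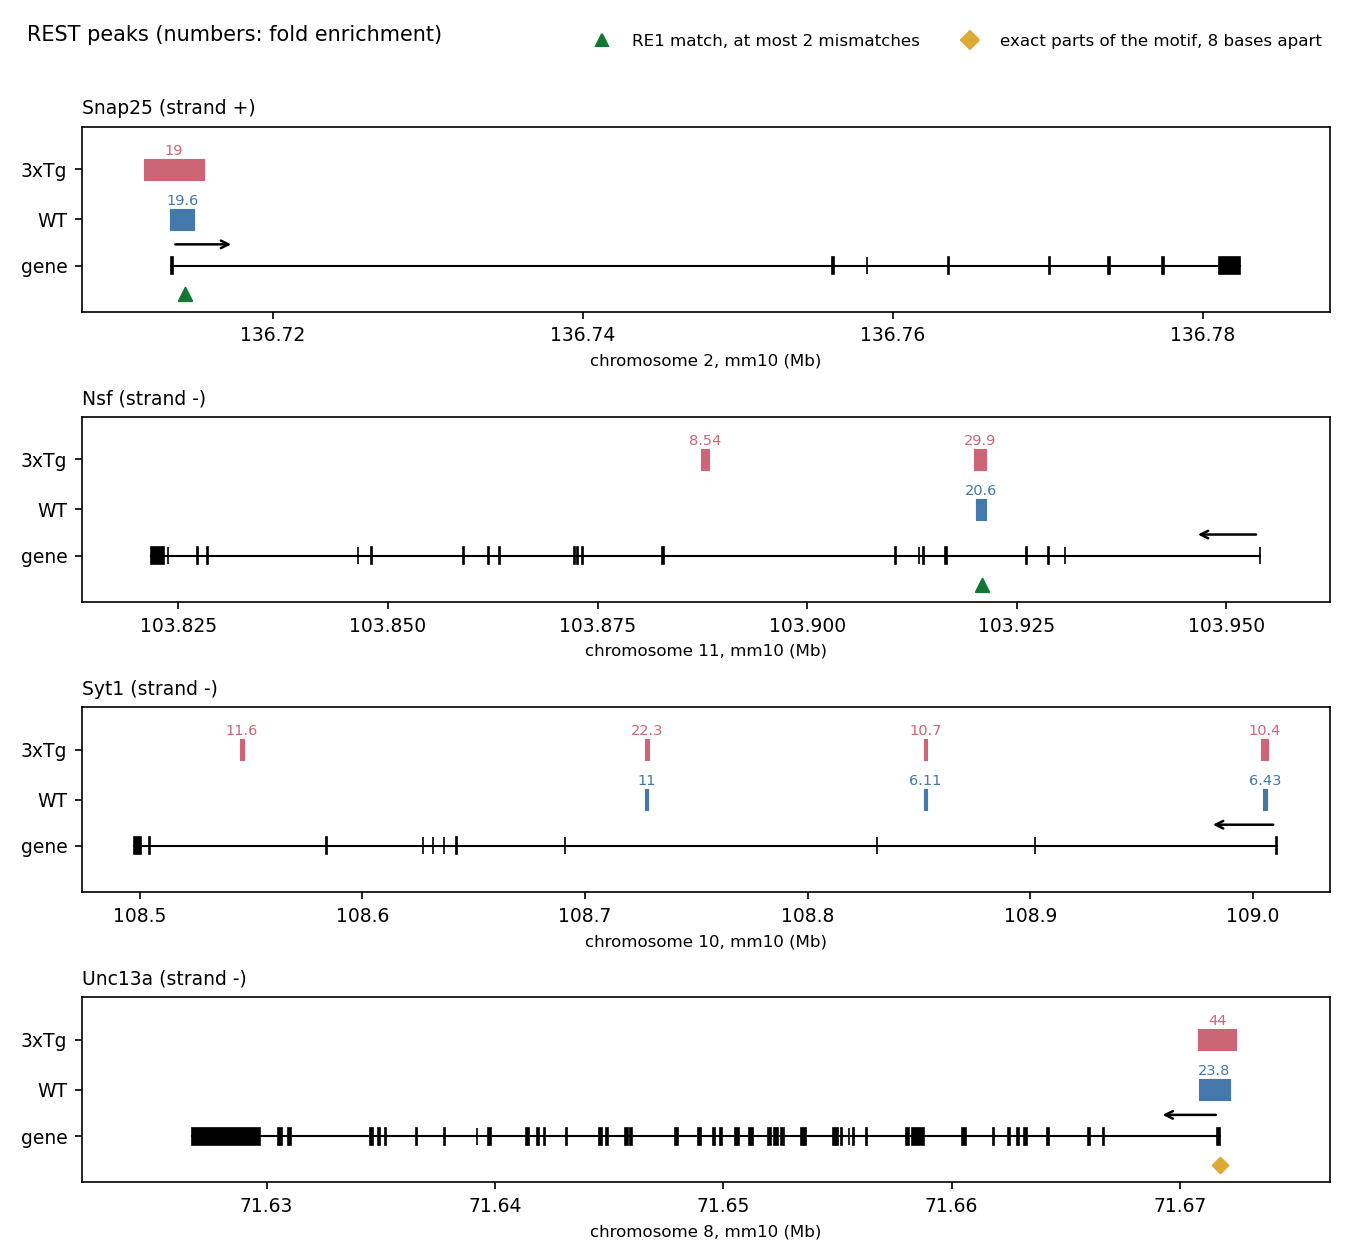
Exons (black), WT peaks (blue) and 3xTg peaks (red) with their fold enrichment along Snap25, Nsf, Syt1 and Unc13a in mm10, with arrows from the start site in the direction of transcription. Green triangles are RE1 matches with at most 2 mismatches and the yellow diamond is the pair of motif parts 8 bases apart, and the Snap25, Nsf and Unc13a marks lie under a shared peak while the 4 Syt1 peaks have no mark.

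RE1 elements were more common at the members than at genes in general, but many lay under no peak. With at most 2 mismatches, 11 of the 45 members (24.4%) held 12 matches in the gene body or within 5 kb of a start site, against 3.35% of all RefSeq genes. Per megabase of gene span the members held 1.97 matches and all genes 0.824. The match lay in a peak at 4 of the 11, Snap25, Nsf, Syt7 and Syt4, and in none at Syt2, Syt6, Syt9, Syn2, Rims3, Synpr and Amph. Over all genes with a match, 142 of 874 (16.2%) had it in a peak. The match was thus under a peak at 36.4% of these members (15.2 to 64.6%), an interval that holds the share of all genes, and at 12.5% (2.24 to 47.1%) of the 8 other vesicle genes with a match. Among the 7 members whose match was under no peak, Syn2 had a 3xTg peak elsewhere in the gene. The closest match under no peak was at Syt2, whose intron 2 holds a match with no mismatch, 234808 bases from the nearest 3xTg peak and 585679 from the nearest WT peak. Synpr, a synaptophysin relative, has 1 mismatch in intron 3 and no peak within 467396 bases. Because the lists end at fold enrichments of 6.0 in WT and 8.5 in 3xTg, weaker binding at these elements would not be seen. They are printed with the same use of capitals, as a contrast to the elements under a peak.
Syt2, chr1:134665006-134665025, plus strand, intron 2, no mismatch: TCAGCACCacGGACAGCaCC
Synpr, chr14:13505542-13505561, minus strand, intron 3, 1 mismatch: TCAGCACCgaGaACAGCtCC
Syt6, chr3:103573990-103574009, plus strand, 1246 bases upstream, 2 mismatches: TCAGCACCgcGGACAGggaC
Syt2 and Synpr match the consensus more closely than Snap25, Nsf or Syt7 do, so the number of mismatches did not order the members by peak height. Genome-wide, 27.8% of the 72 elements with no mismatch lay in a WT peak and 34.7% in a 3xTg peak, against 7.79% and 9.29% of those with 2 mismatches. An exact element under no listed peak, such as that of Syt2, is therefore common genome-wide.

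For the 27 members without a peak, the distance from the edge of the gene to the nearest peak of either list ran from 1378 bases at Vamp2 to 1114317 at Slc17a6, with a median of 80414. Vamp2, Snapin (3041 bases) and Sv2b (3759 bases) came closest, with the peak beyond the reach of the rule. Members without a peak were shorter than those with one, with a median length of 49297 bases against 72095. However, Rims1 at 520187 bases, Unc13c at 489616 and Syn3 at 450151 are among the longest genes of the set and had no peak. Promoter windows from RefSeq (GRCm38.p6) were matched for 34 members, and 8 of these genes had a peak on a window (23.5%, against 7.07% of the 26794 genes in the window table, a wider set than the 26089 used elsewhere), namely Bsn, Cplx3, Napb, Rab3c, Syt11, Synj1, Unc13a and Vamp1. No window was matched for Snap25, Vamp2, Snapin, Syt4, Syt5, Syt7, Doc2a, Doc2b, Dnajc5, Syn3 and Rims2. With the window of most CG dinucleotides taken for each gene, the 8 genes had a median of 14, with a range of 11 to 38. The median was 19 over the members without a peak on a window, and 23 and 7 over all genes of the table with and without one.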

How the data were processed

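REST ChIP-seq was done by the authors on cortex of 11-month-old female WT and 3xTg mice, with an antibody to the C-terminal region of REST and 75 nt single-end reads, in 4 replicates per genotype and 1 input library per genotype. The submitters' processing notes name BWA for replicates 1 and 2 and the inputs and STAR 2.7.0a for replicates 3 and 4, then Picard, DiffBind and ChIPseeker. The authors deposited 1 list of peaks per genotype, pooled over replicates, with the stated filter of fold enrichment over 5, q under 0.01 and removal of ENCODE blacklist regions. The lowest fold enrichment in the lists, 6.0 in WT and 8.5 in 3xTg, does not match that filter, and the limit applied to each list is not stated. In these deposited lists the columns are the peak's score, the fold enrichment at the summit as a ratio, the -log10 of the p, which was not used, and of the q, and the summit as an offset in bases from the peak's start. Read depth is not in the lists, so no depth is given behind a value, and a share carries the Wilson 95% interval of its count.

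Peaks were placed on mm10 (GRCm38.p6, RefSeq). All mice were female, so chromosome Y was dropped, with 4 of 3010 peaks in WT and 9 of 5086 in 3xTg. A gene had a peak when a peak overlapped its body or lay within 5 kb of a start site, and peaks were shared when they overlapped by at least 1 base. Members and lists were chosen with earlier results of these data known. Every member was named, whatever its value; genes of the wider vesicle list were named only after their values were seen. RE1 matches were searched in peaks, in windows of equal width 10 kb downstream, and genome-wide. The search for exact motif parts and their spacing and the comparison among long genes were added after the data were seen. Alternatives were stricter limits on fold enrichment and q, other overlaps and distances, equal list sizes, other mismatch limits and, chosen after seeing the data, the 3xTg limit in both lists. Gene assignment, overlap and motif search were tested on simulated data. Python 3.11.15 was used with numpy 2.4.6, pandas 2.3.3, scipy 1.17.1, matplotlib 3.10.9 and samtools 1.23.1.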

Additional observations from a re-analysis of the deposited data

How the results depend on the processing

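Of 40 alternatives over the gene shares, list-only shares and RE1 shares, 31 stayed inside the interval of the reported value and 9 did not. Of the 31, 6 left every count as it was, since a q under 1e-05 removed no peak and a change to 1 list leaves the gene share of the other. The other 25 changed a count. Among them, the limit to protein-coding genes kept all 45 members, so it changed the share of all genes alone. All 9 alternatives for the share of members with a peak in each list stayed above the share of all genes. All 5 for the RE1 share in each list stayed above the share of all peaks of that list. These 5 include the exact left and right motif parts, which are not full RE1 matches. With fold enrichment over 10, the share of members with a WT peak was 13.3% (1.91% of all genes), WT-only peaks were 0.0% (0.669% of all) and 3xTg-only peaks 62.5% (81.5% of all). With the lowest 3xTg fold enrichment as the limit of both lists, chosen after seeing the data, these were 17.8% (3.01% of all genes), 0.0% (0.526%) and 62.5% (81.4%). Requiring overlap of 50% of both peaks gave 64.7% WT-only (40.8% of all) and 75.0% 3xTg-only (64.9%), so both member shares went from under that of the list to above it. With as many 3xTg peaks as WT peaks, 12.5% of 3xTg member peaks were 3xTg-only (31.9%). The overlap of 50% of both peaks cannot be met by a pair in which 1 peak is under 50% of the width of the other. The median ratio of 3xTg to WT peak width was 2.1 over member pairs and 1.66 over all pairs. Beyond these widths, the fewer peaks and the stricter overlaps themselves, the cause of these moves was not tested. No paired analysis was possible because the lists pool the replicates, and leaving out a replicate was impossible for the same reason. With 17 and 24 member peaks, the intervals on peak shares are wide, and differences inside them were not detectable. Read depth per library, which sets how weak a peak can be called, is not in the lists.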

Other observations

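Among the 51 other vesicle genes, named after their values were seen, Scamp5 was the 1 with an RE1 match of at most 2 mismatches under a peak. Its shared promoter peak had a fold enrichment of 16.3 in WT and 32.3 in 3xTg, and the match, with 1 mismatch, lay at chr9:57468194-57468213 of mm10 on the minus strand. RE1 matches with at most 2 mismatches at Syp, Syn1, Rph3a, Rims4, Rimbp2 and Cadps lay in no peak of either list.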
